A study of Mus musculus with 41 samples.

Results

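The comparison described here is loss of p53 in the inflamed spleen of mice that also lack NOS2. It sets 6 arrays of C. parvum-treated double knockout mice (p53-/-NOS2-/-) against 5 arrays of C. parvum-treated NOS2 knockout mice (p53+/+NOS2-/-), 11 of the 41 arrays of the study. The arrays were chosen by their titles. Of the 637 probe rows, 359 had at least 3 values in each group, and 358 of these were tested. The remaining one, miR-370-a, served to mark a technical array set, as explained below.

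The study profiled total spleen RNA of C57BL mice on a one-channel miRNA array after conversion to biotin-labelled cDNA. It had 4 genotypes, each with saline controls and with mice given C. parvum, a preparation of killed bacteria that provokes a strong macrophage response. Both groups compared here carry the NOS2 deletion and both received C. parvum, so that p53 genotype is the labelled difference. The labels do not say how the mouse lines were bred or whether littermates were compared, so p53 genotype and mouse line cannot be told apart. Treated mice were also given as p53-/-NOS2+/+ (5 arrays) and p53+/+NOS2+/+ (5 arrays), and saline controls as p53-/-NOS2-/- (6 arrays), p53+/+NOS2-/- (5 arrays), p53-/-NOS2+/+ (4 arrays) and p53+/+NOS2+/+ (5 arrays). The series text gives 4 or 5 mice for each grouping, but the double knockout is not among the genotypes it lists. The labels give no age, dose, time after treatment or sex, and do not say how the knockout alleles were made. They do not state that each array is a separate mouse, so p-values measure the spread between these samples, which may be technical. A miRNA array does not measure the Trp53 or Nos2 transcript, and the genotypes could not be checked with the deleted genes.

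p53, encoded by Trp53, is a transcription factor that stops division or triggers death of damaged cells. It raises several miRNAs, of which the miR-34 family is the best known, and it also promotes the processing of some miRNA precursors. NOS2 makes large amounts of nitric oxide in activated macrophages, and nitric oxide can activate p53. A mature miRNA binds messenger RNAs mainly through its seed, the bases near its 5′ end, so miRNAs with one seed share many targets.

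The mature sequences of the miRNAs whose probes passed the test are shown because they define which targets a miRNA can reach and how close related miRNAs are. They were taken from RefSeq (GRCm38.p6), are written 5′ to 3′, and have the seed (bases 2 to 8) in capitals. The probe names do not say which arm of the precursor they detect, except for miR-181a-5p, so both arms are given for the first group. Nor do they say whether a probe reads the mature miRNA or its precursor. A change of a probe need therefore not be a change of the mature sequence shown.

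miR-340-5p: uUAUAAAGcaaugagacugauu

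miR-340-3p: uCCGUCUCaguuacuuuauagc

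miR-193a-5p: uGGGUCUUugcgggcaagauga

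miR-193a-3p: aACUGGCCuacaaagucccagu

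miR-24-2-5p: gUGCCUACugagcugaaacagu

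miR-24-3p: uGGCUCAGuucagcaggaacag

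miR-346-5p: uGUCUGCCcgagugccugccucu

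miR-346-3p: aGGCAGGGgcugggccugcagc

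miR-210-5p: aGCCACUGcccaccgcacacug

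miR-210-3p: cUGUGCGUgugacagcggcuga

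The miR-181 family follows because its members share a seed and are described together below.

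miR-181a-5p: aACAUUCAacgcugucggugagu

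miR-181b-5p: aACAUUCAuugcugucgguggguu

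miR-181c-5p: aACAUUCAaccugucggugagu

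Likewise, let-7f is shown with let-7a, which has the same seed and differs from it at 1 base.

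let-7f-5p: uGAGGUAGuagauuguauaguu

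let-7a-5p: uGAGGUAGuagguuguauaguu

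The seeds of the 5 miRNAs in the first group differ from one another and from those of miR-181 and let-7. In RefSeq, miR-340-5p lies at chr11:50069720-50069741 and miR-193a-5p at chr11:79711975-79711996, both on the plus strand. The sequence of miR-24-2-5p lies at chr8:84208839-84208860 (plus strand), with the genes of miR-23a and miR-27a on the same chromosome and starting within 297 bases of Mir24-2. Mature let-7f-5p is encoded by 2 genes, Mirlet7f-1 at chr13:48537889-48537910 (minus strand) and Mirlet7f-2 on chromosome X. A probe for the mature form cannot separate the products of these genes.

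The arrays fell into 2 technical sets. The deposited log2 signal of miR-370-a was at most 9.32 on 18 arrays (set 1) and at least 11.14 on 23 arrays (set 2), with none between. The double knockout C. parvum group had 1 array in set 1 (array 6) and 5 in set 2, and the NOS2 knockout C. parvum group had 2 in set 1 (arrays 1 and 2) and 3 in set 2. No label or header says what the sets are. They were kept as a term in the fit, and results were repeated within set 2. Each array measured 339 to 425 probes in the double knockout and 349 to 408 in the NOS2 knockout. Array 6 of the double knockout (correlation 0.945 with the mean of the rest of its group) and array 5 of the NOS2 knockout (0.933) stood apart from the other arrays of their groups, whose correlations were 0.966 to 0.990. The highest correlation between any 2 arrays of the study was 0.981, so none looked like a copy of another. All levels below are normalized log2 signals, and changes are differences of these, double knockout minus NOS2 knockout, with standard errors (SE). The base of the logarithm was inferred from the values and is not stated in the table, so folds rest on that inference.

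Of the 358 probes tested for loss of p53 in the inflamed NOS2-null spleen, few passed the threshold. A probe that did not pass may still have changed. Limma called 9 probes at an adjusted p under 0.05 (2.51% of those tested), of which 6 were higher in the double knockout (1.68%) and 3 lower (0.838%). The 6 that rose were both probes of miR-801, which RefSeq lists as the U11 small nuclear RNA, and probes of miR-340, miR-193, miR-181a and let-7f-1. The 3 that fell were probes of miR-24-2, miR-346 and miR-210. The median change over all tested probes was 0.02, and the middle of the distribution ran between -0.26 and 0.26 (lower and upper quartile). At an unadjusted p under 0.05, where chance would give a share of about 0.05, there were 71 of the 358 probes, 43 higher and 28 lower.

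**Figure D1:**
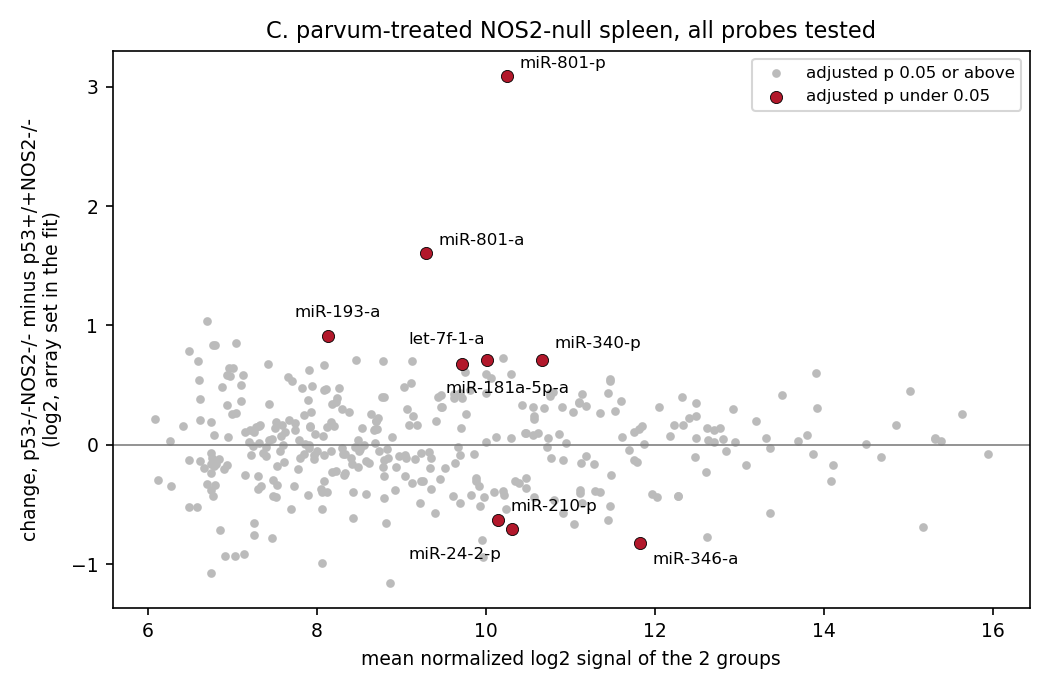
Change on loss of p53 (log2, double knockout minus NOS2 knockout, both C. parvum-treated, with array set in the fit) plotted against the mean normalized log2 signal of both groups, 1 point per tested probe. The 9 probes with an adjusted p under 0.05 are named, and the miR-801 probes lie at 3.09 and 1.61, well away from the other 7, which lie between -0.82 and 0.91.

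Without the array set in the fit 8 probes were called (2.23%), 7 of them the same. Within set 2 alone, with 5 double knockout and 3 NOS2 knockout arrays, 3 of 313 probes were called (0.958%), of which the miR-801 probes were 2. The third was not among the 9, so none of the 7 called probes other than miR-801 was called there. All 9 probes had the same sign within set 2, and 8 of the 9 had an unadjusted p under 0.05 there, miR-210-p being the exception. The set 1 difference, array 6 of the double knockout minus the mean of arrays 1 and 2 of the NOS2 knockout, also had the same sign for all 9. These signs come from the same arrays that gave the calls, so they are not independent checks. The count was sensitive to single arrays. It was 2 without double knockout array 2 or NOS2 knockout array 1, 3 without double knockout array 3 or NOS2 knockout array 4, and 4 without double knockout array 1 or 6 or NOS2 knockout array 2 or 5. Both miR-801 probes passed each time.

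U11 RNA was the largest change. U11 is a small nuclear RNA of the minor spliceosome, which removes a rare class of introns, and it is not a miRNA. The entry miR-801 was therefore read as U11. The miR-801-p probe gave 12.17, 12.01, 10.80, 11.61, 11.43 and 12.45 on double knockout arrays 1 to 6, against 9.10, 8.93, 8.92, 9.0 and 7.85 on NOS2 knockout arrays 1 to 5. The lowest double knockout array lay above the highest NOS2 knockout array. The fitted change was 3.09 ± 0.26 (SE; limma, adjusted p = 2.71e-11), 8.52-fold, with a 95% interval of 2.56 to 3.62.

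The second U11 probe, miR-801-a, gave 10.71, 10.15, 9.25, 9.96, 9.84 and 10.59 on the double knockout arrays, against 8.56, 8.51, 8.31, 8.80 and 8.31 on the NOS2 knockout arrays. Again no array overlapped. The change was 1.61 ± 0.28 (limma, adjusted p = 0.000212), 3.05-fold. The U11 probes were thus both higher and differed in the size of the change. The labels and the table do not explain what distinguishes the -a and -p probes. Within set 2 the changes were 3.01 for miR-801-p and 1.51 for miR-801-a, and both were called there (limma, adjusted p = 5.23e-07 and 0.0472).

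**Figure D2:**
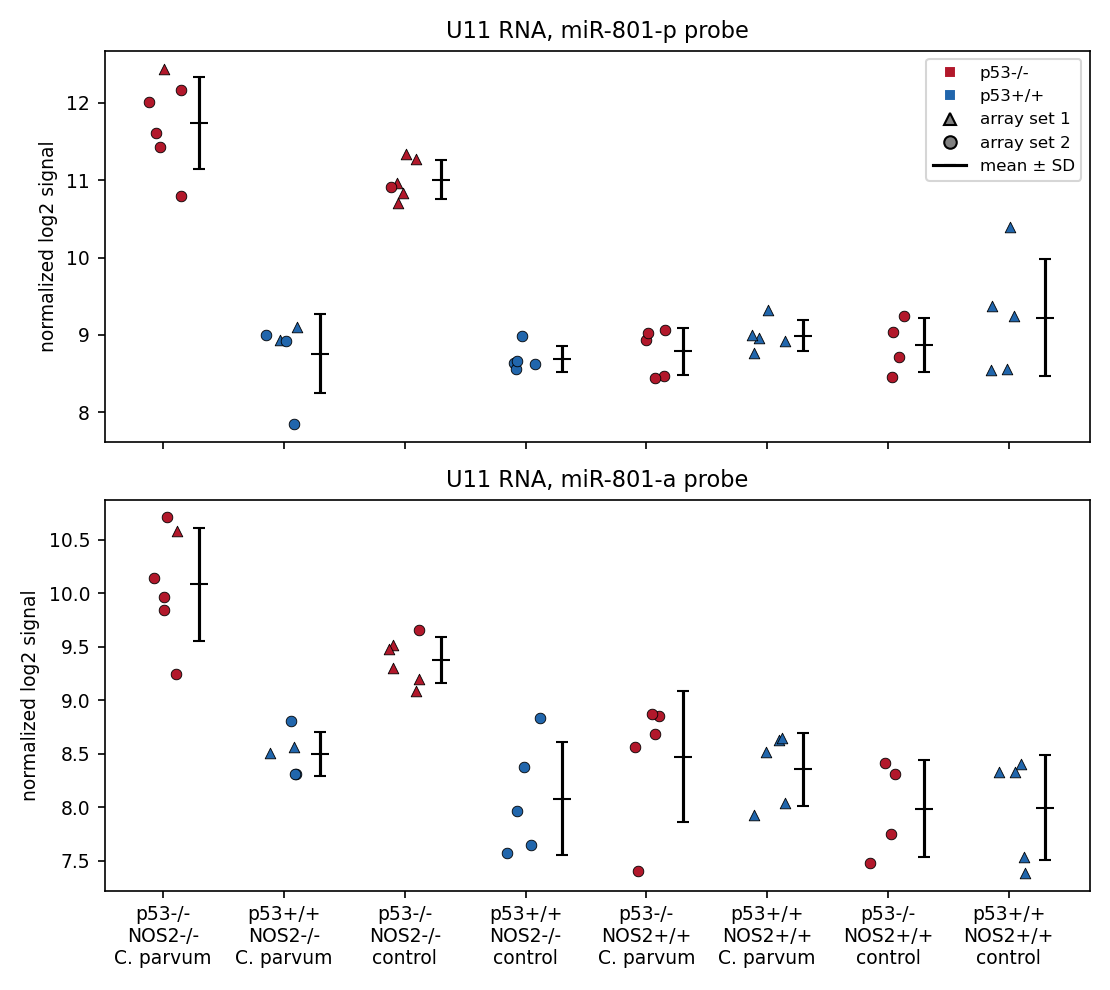
Normalized log2 signal of the U11 probes miR-801-p (top) and miR-801-a (bottom) on each of the 41 arrays by group, with mean and SD beside the points and the array set as marker shape. The 12 double knockout arrays, treated and control, lie above the other 29 arrays for both probes.

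The 12 double knockout arrays were the high ones for U11, and the p53-/-NOS2+/+ arrays were not, as the plot of U11 by group shows. The U11 difference between double knockout and NOS2 knockout was present in saline controls too. The miR-801-p level was 10.71 to 11.34 on the 6 double knockout control arrays, against 8.56 to 8.98 on the 5 NOS2 knockout control arrays. The control difference was 1.94 ± 0.33 (limma, adjusted p = 0.000382), and for miR-801-a it was 1.21 ± 0.35 (adjusted p = 0.0562). Of the double knockout controls 5 were in set 1 and 1 in set 2, and all NOS2 knockout controls were in set 2, so the set term for these groups rests largely on other groups. The double knockout control array in set 2 (array 6) had a miR-801-p level of 10.92, above every NOS2 knockout control. Over the whole study the 12 double knockout arrays spanned 10.71 to 12.45 for miR-801-p, and the other 29 arrays spanned 7.85 to 10.39. For miR-801-a the spans were 9.08 to 10.71 in double knockout arrays and 7.39 to 8.87 on the other arrays.

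In treated mice with NOS2, the U11 probes did not pass. There the miR-801-p level averaged 8.79 in p53-/-NOS2+/+ and 8.99 in p53+/+NOS2+/+, a plain difference of -0.20. The p53-/-NOS2+/+ arrays were all in set 2 and the p53+/+NOS2+/+ arrays all in set 1, and the set term, estimated in other groups, turned this to 0.25 ± 0.37 (limma, adjusted p = 0.885). For miR-801-a the fitted difference was 0.22 ± 0.38 (adjusted p = 0.908). The p53-/- minus p53+/+ difference in miR-801-p was larger by 2.84 ± 0.42 without NOS2 than with it (limma interaction, adjusted p = 1.95e-05), and by 3.19 without the set term (adjusted p = 1.77e-07). The same interaction for miR-801-a was 1.39 and did not pass (adjusted p = 0.244). For miR-801-p, the treated difference less the control difference did not pass (1.15, limma adjusted p = 0.31).

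Of the 7 other called probes, miR-340-p had the smallest p. miR-340 has been studied mainly for restraining growth of tumour cells. It gave 10.99, 11.25, 10.89, 11.04, 11.08 and 10.92 on the double knockout arrays, against 10.12, 10.30, 10.39, 10.66 and 10.05 on the NOS2 knockout arrays. Every double knockout array was higher than every NOS2 knockout array. The change was 0.71 ± 0.17 (limma, adjusted p = 0.0212), and the array set moved this probe by 0.07. The call was lost when double knockout array 2 or NOS2 knockout array 1 or 5 was left out. It was also lost within set 2, at 0.68 (limma, adjusted p = 0.0621). With only the 11 arrays compared in the fit the change was 0.69 and did not pass (adjusted p = 0.0633). The other probe of this miRNA, miR-340-a, was not tested, so the call rests on the -p probe alone.

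miR-193-a, whose miRNA RefSeq now names miR-193a, also separated the groups. Its levels were 8.72, 8.80, 8.51, 8.51, 8.46 and 8.58 in the double knockout, against 7.69, 7.66, 7.86, 7.92 and 7.18 in the NOS2 knockout. The lowest double knockout level was 8.46 and the highest NOS2 knockout level 7.92. The change was 0.91 ± 0.24 (limma, adjusted p = 0.0297), and within set 2 it was 0.94, not called there (adjusted p = 0.0882). With miR-801-p, miR-801-a and miR-340-p it made up the 4 of 9 called probes whose arrays did not overlap. Among all 358 probes 16 did not overlap (4.47%), 8 above and 8 below.

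miR-181a-5p belongs to a family that is abundant in thymocytes and developing lymphocytes, where it tunes antigen receptor signalling. Its levels were 9.89, 10.12, 10.01, 9.92, 9.61 and 10.61 in the double knockout, against 9.75, 9.56, 9.54, 9.28 and 8.98 in the NOS2 knockout. The groups overlapped only through double knockout array 5 and NOS2 knockout array 1. The change was 0.68 ± 0.18 (limma, adjusted p = 0.0297), and within set 2 it was 0.64, not called there (adjusted p = 0.0882). The other members that share its seed had values on the same side but did not pass, with 0.70 ± 0.22 for miR-181c-a (adjusted p = 0.0924), 0.44 ± 0.16 for miR-181b-2-a (0.154) and 0.52 ± 0.25 for miR-181b-1-a (0.244). The -p probes of the family had values of the opposite sign that did not pass either, at -0.52 for miR-181a-2-p and -0.38 for miR-181c-p. Among the alternatives, miR-181c-a passed in 2 of 12, and miR-181b-2-a passed with array weights at 0.49 (limma, adjusted p = 0.0488).

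let-7f-1-a belongs to the let-7 family, which restrains growth-promoting genes in differentiated cells. It gave 10.89, 10.86, 10.71, 10.54, 10.52 and 9.50 in the double knockout, against 8.93, 8.46, 10.41, 9.94 and 9.92 in the NOS2 knockout. The low arrays of both groups, double knockout 6 and NOS2 knockout 1 and 2, were those of set 1, and the set moved this probe by 1.13. The change with the set in the fit was 0.71 ± 0.20 (limma, adjusted p = 0.0428), and within set 2 it was 0.61 (adjusted p = 0.0804). The probe let-7f-2-a, named for the other gene of the same mature miRNA, was at 0.31 ± 0.21 and did not pass (adjusted p = 0.417). Its neighbours on chromosome 13, let-7a-1-a and let-7d-5p-a, were at 0.01 and 0.16.

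Among the probes that fell, miR-24-2-p comes from the cluster of miR-23a, miR-27a and miR-24-2, which is expressed in myeloid cells. It gave 10.25, 9.54, 9.79, 10.21, 10.19 and 9.68 in the double knockout, against 10.99, 10.99, 10.54, 10.75 and 10.17 in the NOS2 knockout. NOS2 knockout array 5 was the only one of its group within the double knockout range. The change was -0.71 ± 0.18 (limma, adjusted p = 0.0297), and -0.49 within set 2, not called there (adjusted p = 0.298). The other probes of the cluster did not pass, at 0.05 ± 0.14 for miR-23a-a, -0.30 ± 0.16 for miR-27a-a and 0.34 ± 0.25 for the probe labelled miR-24-2-a/p, and miR-24-1-3p-a, for the mature miR-24-3p, was at 0.07 ± 0.14.

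miR-346 is encoded within a glutamate receptor gene. Its -a probe gave 11.40, 11.40, 11.72, 12.17, 12.28 and 10.27 in the double knockout, against 11.90, 11.43, 12.45, 12.35 and 12.45 in the NOS2 knockout. The ranges overlapped across sets, but within set 2 the 5 double knockout arrays were all below the 3 NOS2 knockout arrays after normalization. As deposited, double knockout array 5 (12.3406) lay above NOS2 knockout array 4 (12.3396). The set moved this probe by 1.06, and the change with the set in the fit was -0.82 ± 0.22 (limma, adjusted p = 0.0297). Without the set the change was -0.57 and did not pass (adjusted p = 0.205), and neither did that within set 2, at -0.62 (adjusted p = 0.281).

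miR-210 is the miRNA most closely tied to hypoxia, induced by the hypoxia-inducible factors. Its -p probe gave 9.86, 9.75, 9.54, 10.03, 9.98 and 9.52 in the double knockout, against 11.25, 11.01, 9.73, 10.30 and 10.25 in the NOS2 knockout. The highest values were those of NOS2 knockout arrays 1 and 2, both of set 1. The change was -0.63 ± 0.18 (limma, adjusted p = 0.0428), and within set 2 it was -0.26 (adjusted p = 0.551). Without double knockout array 6 it was -0.38 (adjusted p = 0.394). The other probe of this miRNA, miR-210-a, was not tested, so the call rests on the -p probe alone.

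**Figure D3:**
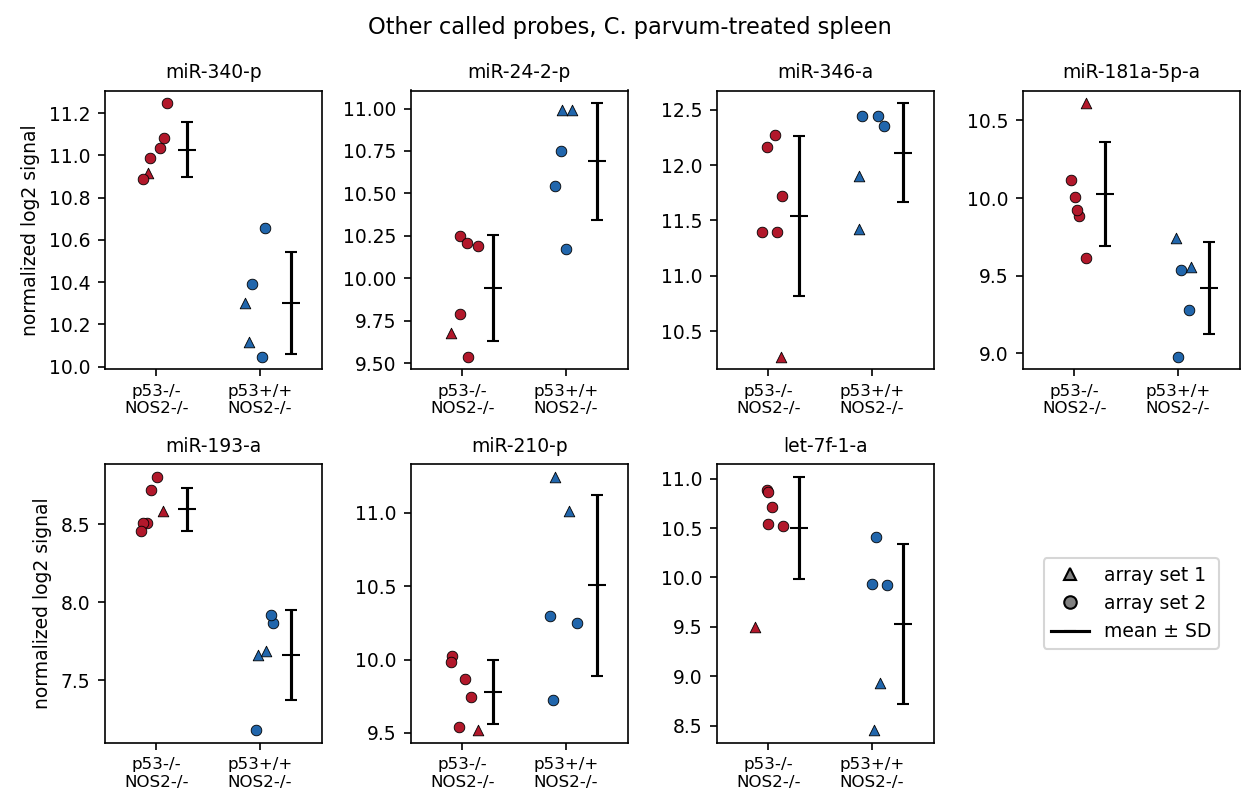
Normalized log2 signal of the 7 other called probes on each double knockout (left, n = 6) and NOS2 knockout (right, n = 5) C. parvum array, with mean and SD beside the points and the array set as marker shape. Only miR-340-p and miR-193-a have no overlap between the groups, and let-7f-1-a is low on all set 1 arrays.

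The calls of miR-346-a, miR-181a-5p, miR-193-a, miR-210-p and let-7f-1-a were lost whenever double knockout array 1, 2, 3 or 6 or NOS2 knockout array 1, 2, 4 or 5 was left out. That of miR-24-2-p was lost without double knockout array 2, 3 or 6 or NOS2 knockout array 1, 2 or 4. The sign of these 6 probes and of miR-340-p was the same in every one of the 11 fits with an array left out. Those fits share most arrays with the fit that made the calls, so the shared sign is not an independent check.

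The next probes by p did not pass in the fit that made the calls. miR-7-1-p, named for a miRNA known for its high level in neuroendocrine cells, was at 0.71 ± 0.22 and miR-138-2-p at -0.49 ± 0.15 (limma, adjusted p = 0.0873 each). miR-671-p was at -0.93 ± 0.28 (adjusted p = 0.0873) and was measured on only 4 of the 6 double knockout arrays. miR-543-p, of the imprinted Dlk1-Dio3 cluster, was at -0.69 ± 0.22, miR-152-a at -0.99 ± 0.32 and miR-425-p at 0.59 ± 0.19 (adjusted p = 0.0924 each). With values as deposited miR-543-p passed at -0.80, and median centred at -0.90 (limma, adjusted p = 0.0148 and 0.0102). It passed in 3 of 12 alternatives, miR-671-p in 3 of 11 and miR-425-p in 2 of 12. miR-7-1-p, miR-138-2-p and miR-152-a passed in 1 of 12 each. With an array left out, miR-7-1-p, miR-138-2-p and miR-671-p passed in 1 of 11 fits each, and the others in 0. miR-152-a was at 10.01 on NOS2 knockout array 5 and 7.82 to 8.46 on the other arrays of that group, and without array 5 its change was -0.57 (adjusted p = 0.316). The levels of miR-7-1-p were 8.56 to 9.27 in the double knockout and 7.66 to 8.55 in the NOS2 knockout. Those of miR-543-p were 14.35 to 15.03 in the double knockout and 15.30 to 15.73 in the NOS2 knockout. Neither overlapped, beside 4.47% of all tested probes without overlap.

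Of the p53-responsive miRNAs, 12 of the 13 on the array were tested and none passed, beside 2.51% of all tested probes, so that 0 of 12 is near the background. Of the 12, 10 had a value above 0 and 2 below. Their median change was 0.18, beside 0.02 for all probes. miR-34a, the best known p53 target among miRNAs, gave 7.06, 7.61, 7.57, 7.63, 6.86 and 8.09 in the double knockout, against 6.27, 6.22, 5.90 and 8.11 on NOS2 knockout arrays 1, 3, 4 and 5, with no value on array 2. Array 5 lay above the whole double knockout group and the other 3 lay below it. The difference was 0.85 ± 0.33 (limma, adjusted p = 0.175). Without NOS2 knockout array 5 it was 1.38 ± 0.31, higher in the double knockout, and passed (adjusted p = 0.0064), while the other 10 fits with an array left out gave 0.59 to 0.97 and did not pass. It also passed with array weights, at 1.23 (adjusted p = 0.00528), and in none of the other 10 alternatives. miR-34b-p was at -0.72 ± 0.32 (adjusted p = 0.213) and miR-34c-p at 0.04 ± 0.27. Among the other members miR-145 was at 0.55 ± 0.19 (adjusted p = 0.114), miR-215 at 0.50 ± 0.30 and miR-192 at 0.17 ± 0.16.

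In the remaining families, none of the 4 tested miR-34 relatives, 3 miR-29, 5 miR-15/16 or 9 miR-17-92 members passed, beside 2.51% of all tested probes. The let-7 list, in which each miRNA stands for its brightest probe and let-7f for let-7f-2-a, also had none of 8 passing. The miR-29 family, which represses collagens and other matrix genes, had values above 0 in all 3 members, with 0.59 ± 0.20 for miR-29c-a (limma, adjusted p = 0.0994), 0.35 ± 0.17 for miR-29a-a and 0.27 ± 0.14 for miR-29b-2-a. miR-29c-a was at 9.96 to 10.75 in the double knockout and 9.48 to 9.89 in the NOS2 knockout. It was thus without overlap, beside 4.47% of all tested probes. It passed when only probes measured on all 41 arrays were tested (limma, adjusted p = 0.0486). The medians were 0.14 for miR-34, 0.35 for miR-29, 0.05 for let-7, 0.11 for miR-15/16 and 0.24 for miR-17-92 members.

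None of the 7 miRNAs of the inflammation list passed, beside 2.51% of all tested probes. miR-155, induced in activated macrophages and lymphocytes, averaged 12.81 ± 0.38 in the double knockout (SD, n = 6) and 12.81 ± 0.74 in the NOS2 knockout (SD, n = 5), a change of 0.05 ± 0.23 (SE; limma, adjusted p = 0.927). miR-21 was at 0.05 ± 0.19 and miR-146, a brake on NF-kB signalling, at 0.08 ± 0.16. The highest value was that of miR-132 at 0.67 ± 0.29 and the lowest that of miR-212, encoded beside it, at -0.54 ± 0.21 (limma, adjusted p = 0.213 and 0.16). The list's median was 0.05.

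**Figure D4:**
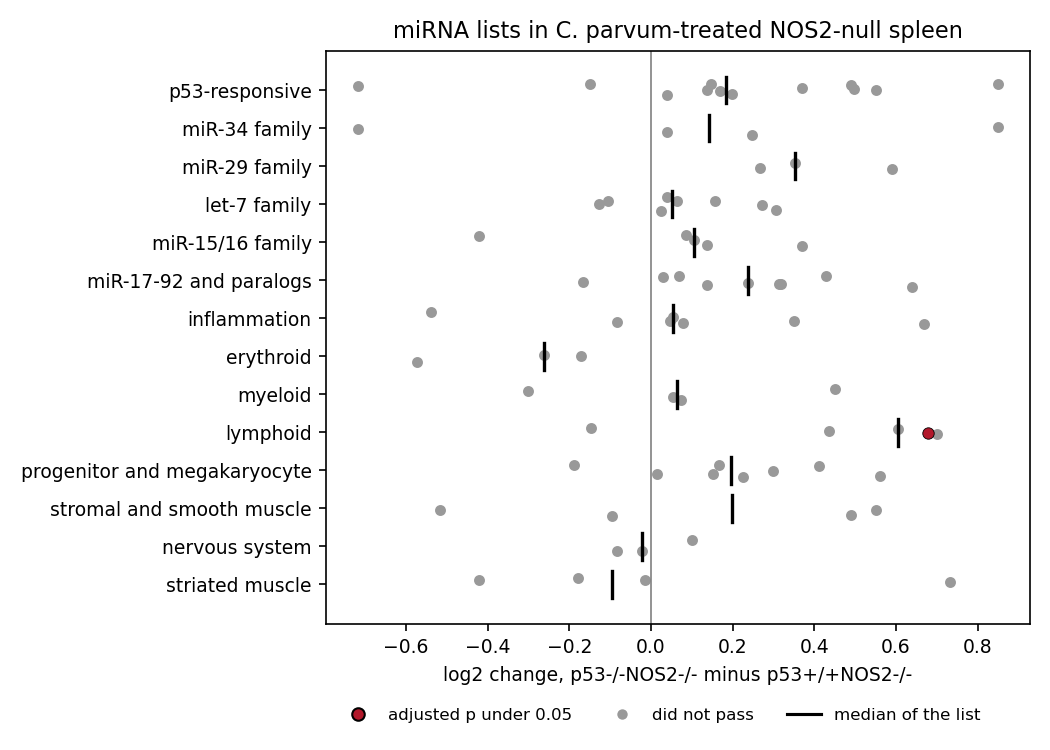
Change on loss of p53 (log2, double knockout minus NOS2 knockout) for each tested member of the lists with at least 3 tested members, 1 point per miRNA with the list's median as a bar. The 1 member past the threshold is miR-181a in the lymphoid list, whose median is 0.60, and the erythroid median is -0.26.

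The labelled tissue was checked with markers of blood cells. The myeloid miR-223 was among the brightest probes, averaging 15.31 ± 0.33 in the double knockout (SD, n = 6) and 14.73 ± 0.48 in the NOS2 knockout (SD, n = 5). The erythroid miR-451 averaged 13.19 ± 0.75 in the double knockout and 13.54 ± 0.63 in the NOS2 knockout, and the lymphoid miR-150 averaged 14.25 ± 0.34 in the double knockout and 13.56 ± 0.84 in the NOS2 knockout. In whole spleen, fewer cells of a type and less RNA per cell cannot be told apart.

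Among lymphoid miRNAs 1 of 5 rose, miR-181a, beside 1.68% of all tested probes higher, and this call was lost in 6 of 12 alternatives and, as given above, without any of 8 arrays. The values of 4 were above 0, with a median of 0.60, which is the value of miR-150. miR-150, of mature lymphocytes, was at 0.60 ± 0.28 (limma, adjusted p = 0.213) and was lowest on NOS2 knockout array 5, at 12.17. Without that array it was at 0.12 (adjusted p = 0.81). The summed lymphoid signal was 14.45 to 15.04 on double knockout arrays and 13.32 to 14.73 on NOS2 knockout arrays (log2). None of the 4 myeloid members passed, beside 2.51% of all tested probes, with miR-223 at 0.45 ± 0.16 (adjusted p = 0.136) and a list median of 0.06. The summed myeloid signal was 16.34 to 16.57 in the double knockout and 15.99 to 16.53 in the NOS2 knockout. All 3 erythroid members were below 0 without passing, miR-451 at -0.57 ± 0.29 (-0.31 without double knockout array 6), miR-144 at -0.26 ± 0.39 and miR-486 at -0.17 ± 0.39, and their summed signal was 14.43 to 14.96 in the double knockout and 14.43 to 15.46 in the NOS2 knockout. None of the 8 progenitor and megakaryocyte members passed (median 0.20), nor any of the 4 stromal and smooth muscle members (median 0.20). Both counts stand beside 2.51% of all tested probes. The part of cell composition in the called changes was not tested.

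Some markers of neighbouring or foreign tissue were dim or unmeasured, but not all. The nervous system list's miR-128a averaged 10.64 in the double knockout and 10.61 in the NOS2 knockout, and its miR-9 averaged 9.61 and 9.79. The muscle list's miR-1 averaged 10.68 in the double knockout and 9.73 in the NOS2 knockout. Of the pancreas list, miR-375 was tested and miR-216 and miR-217 were not. miR-375 gave 7.63, 6.88, 8.01, 10.15, 7.95 and 8.62 in the double knockout, against 8.66, 10.41, 8.60, 7.73 and 12.21 in the NOS2 knockout. It was highest on NOS2 knockout array 5, the array that stood apart, and its change was -1.15 ± 0.80 (limma, adjusted p = 0.417), or -0.23 without that array (adjusted p = 0.885). miR-217-p was measured on 2 of 6 double knockout and 3 of 5 NOS2 knockout arrays and miR-217-a on 0 double knockout and 1 NOS2 knockout array. No probe of the liver's miR-122a had enough values to be tested. None of the 3 nervous system members (median -0.02) or the 4 striated muscle members (median -0.10) passed, beside 2.51% of all tested probes. Of the muscle members miR-1 was the 1 above 0, at 0.73 ± 0.38 (limma, adjusted p = 0.271), and 3 were below. Without NOS2 knockout array 5 both U11 probes and 2 other probes were called, and the U11 changes ranged from 2.77 to 3.25 for miR-801-p and 1.40 to 1.76 for miR-801-a over all alternatives and left-out arrays.

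Whether treatment altered the effect of p53 loss was tested as a difference of differences, the double knockout minus NOS2 knockout change after C. parvum less that in controls. Limma called 0 of 339 probes (0%), with 32 at an unadjusted p under 0.05. The smallest p was that of miR-451-a, an erythroid miRNA, at -1.97 ± 0.50 (adjusted p = 0.119). Its level averaged 13.19 ± 0.75 in double knockout and 13.54 ± 0.63 in NOS2 knockout treated arrays, and 13.31 ± 0.25 in double knockout and 12.71 ± 0.67 in NOS2 knockout controls. These averages give -0.94, the value without the set term (adjusted p = 0.201), and the rest of the -1.97 comes from the set term, which in these controls nearly coincides with genotype. miR-218-a followed at 2.02 ± 0.57 (adjusted p = 0.196) and miR-672-p at 1.21 ± 0.38 (adjusted p = 0.232), which were 1.79 and 0.54 without the set term (adjusted p = 0.027 and 0.342). Without double knockout control array 6 miR-672-p was at 0.70. miR-218-a was at 7.06 to 7.60 in double knockout and 6.76 to 8.72 in NOS2 knockout treated arrays, and at 5.23 to 7.28 in double knockout and 7.56 to 8.38 in NOS2 knockout controls. The low control values came partly from normalization. Double knockout control arrays 1, 2 and 5 were at 6.55, 6.41 and 6.39 as deposited and at 5.51, 5.23 and 5.86 after it. As deposited, miR-218-a spanned 6.39 to 7.34 in double knockout and 7.60 to 8.46 in NOS2 knockout controls. Without the array set 20 probes passed (5.9%). Without double knockout control array 6, the only one of its group in set 2, there were 5, among them miR-451-a at -2.50 and miR-218-a at 2.46 (limma, adjusted p = 0.0237 and 0.0457). Without NOS2 knockout control array 2 there was 1, miR-451-a at -2.13 (adjusted p = 0.045).

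The 7 called probes other than U11 did not pass in controls. Their control values depend on the set term, since 5 of the 6 double knockout controls and no NOS2 knockout control were in set 1. With the set in the fit the change was 0.38 ± 0.21 in controls for miR-340-p, 0.57 ± 0.30 for miR-193-a, 0.46 ± 0.25 for let-7f-1-a and -0.49 ± 0.22 for miR-210-p. For miR-181a-5p it was 0.10 ± 0.23, for miR-24-2-p 0.21 ± 0.23 and for miR-346-a 0.32 ± 0.27. For let-7f-1-a and miR-346-a the direction turned without the set term: control levels of let-7f-1-a averaged 10.25 in the double knockout and 10.72 in the NOS2 knockout, a plain difference of -0.48, and those of miR-346-a averaged 10.94 in the double knockout and 11.50 in the NOS2 knockout, a plain difference of -0.56. The other plain control differences were 0.32 for miR-340-p, 0.49 for miR-193-a, 0.37 for miR-181a-5p, 0.34 for miR-24-2-p and -0.13 for miR-210-p. The difference between the treated and the control change did not pass for any of the 7, the smallest adjusted p being 0.232, for miR-24-2-p and miR-346-a (limma).

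**Figure D5:**
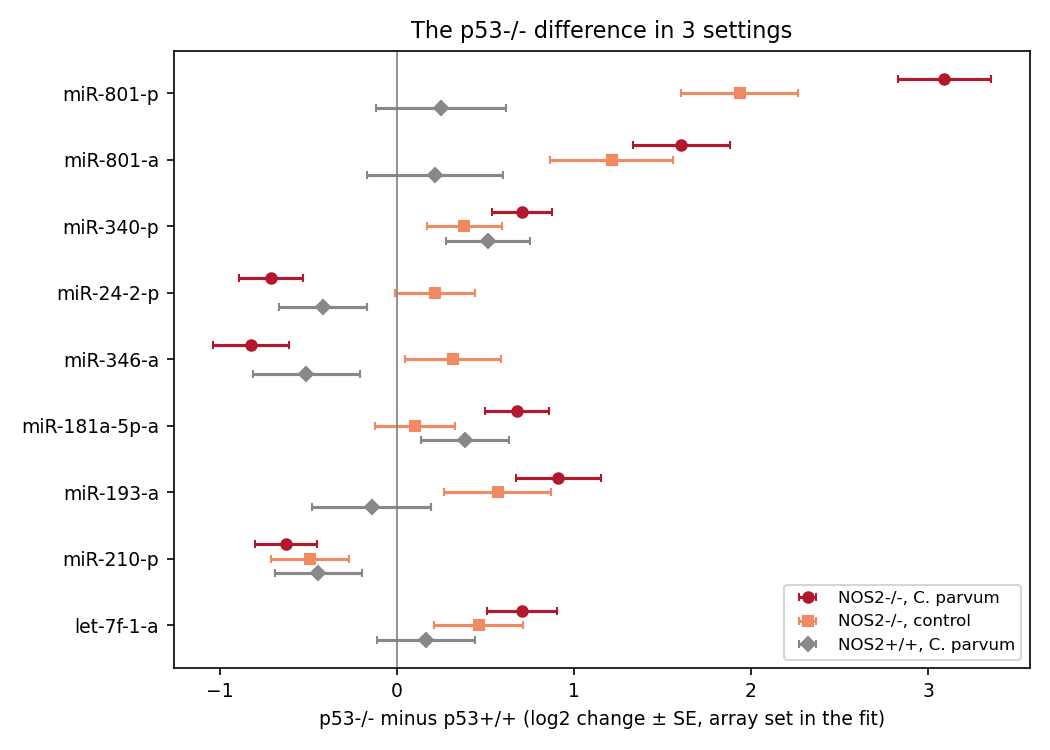
Change of the 9 called probes with p53 loss (log2 ± SE, p53-/- minus p53+/+, array set in the fit) in NOS2-/- C. parvum spleen, NOS2-/- control spleen and NOS2+/+ C. parvum spleen. The control and NOS2+/+ values rest largely on the set term, and without it the direction turns for miR-346-a in both, for let-7f-1-a in controls and for miR-801-p in NOS2+/+ spleen. The U11 probes, labelled miR-801, are at 3.09 and 1.61 after C. parvum and 1.94 and 1.21 in controls.

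Whether the p53-/- minus p53+/+ difference after C. parvum differed with NOS2 genotype was tested in the same way, with 322 probes. The labels do not give the breeding, so NOS2 genotype and mouse line cannot be told apart here. Limma called 2 (0.621%; 7 or 2.17% without the array set), miR-801-p (above) and miR-341-a, a miRNA of the imprinted Dlk1-Dio3 cluster. Its level was 9.70 to 10.43 in double knockout and 9.25 to 10.49 in NOS2 knockout treated arrays, with a change of 0.02 ± 0.17. In mice with NOS2 it was 10.17 to 10.47 in p53-/-NOS2+/+ and 7.81 to 8.72 in p53+/+NOS2+/+. The interaction was -1.22 ± 0.28 (limma, adjusted p = 0.0155), and it was not called without double knockout array 1 or 2, or with values as deposited. All 5 treated p53+/+NOS2+/+ arrays were in set 1 and all 5 treated p53-/-NOS2+/+ arrays in set 2, and the set moved miR-341-a by 0.84, so this interaction rests on a set effect estimated in other groups. Among the 7 other called probes the interaction passed for none, the smallest adjusted p being 0.447 for miR-193-a.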

How the data were processed

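The authors deposited 1 table of log2 values for 637 probes on 41 arrays, in which 40.1% of the cells of the 11 arrays compared hold no value. The log base was inferred from the values, and nothing used here names the scanner or how background and scale were treated. Because array medians over the 227 probes measured on every array differed by up to 0.705, above a limit of 0.5, the values were quantile normalized, with missing cells ranked below measured ones and left missing. A uniform shift of all miRNAs would thus not be seen.

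Group means of all 8 groups and the array set (miR-370-a below or above 10) entered 1 linear model for each probe (limma 3.58.1, R 4.3.3). Variances were moderated and p-values adjusted by Benjamini-Hochberg at 0.05. Probes with 3 or more values in every group compared were tested. The procedure was tested on simulated data. Named probes were the 15 miRNAs with the smallest p, preset miRNAs, and leading members of 16 lists, each miRNA by its brightest -a probe, else -p. miR-720 and miR-805 were chosen after their values were seen. The members and lists were chosen with earlier results of these data known. Alternatives changed the set, normalization, missing cells, filters, variance model, weights, arrays and a replicate block. The number of arrays limits the precision.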

Additional observations from a re-analysis of the deposited data

Results flagged for a closer look

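For the named probes, 14 groups of values had a highest or lowest array further from its neighbour than Dixon's 95% critical value allows, 9.66% of the groups tested, where chance flags about 1 in 20. Of these, 6 were on double knockout C. parvum array 6, which is the only set 1 array of its group. It was low for let-7f-1-a (9.50), let-7g-a (10.37), miR-16-1-a (12.17), miR-195-a (10.71) and miR-451-a (11.72) and high for miR-128a-a (10.96). A further 5 were on NOS2 knockout C. parvum array 5, low for miR-801-p (7.85), miR-671-p (7.17), miR-486-a (13.44) and miR-17-5p-a (11.61) and high for miR-34a-a (8.11). The remaining 3 were miR-194-2-a, low on double knockout array 4 (6.55), miR-106b-a, high on double knockout array 1 (11.69), and miR-1-a, low on NOS2 knockout array 1 (7.98).

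Without double knockout array 6 or without NOS2 knockout array 5, 4 probes were called each time, and the U11 probes were among them.

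The p53-/- minus p53+/+ difference after C. parvum differed with NOS2 genotype by limma's interaction term for miR-801-p, larger by 2.84 without NOS2 (adjusted p = 1.95e-05), and for miR-341-a, at -1.22 (adjusted p = 0.0155). As given above, the miR-341-a term rests on a set effect estimated in other groups. It was not called without double knockout array 1 or 2, or with values as deposited.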

How the results depend on the processing

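The count of 9 called probes was 3 with set 2 arrays only, 3 with only the 11 arrays compared in the fit, and 17 of 226 when only probes measured on all 41 arrays were tested. With a replicate block it was 5, all among the 9. The deviations of same-numbered arrays from their group means had correlations of -0.04, -0.29, 0.43, -0.18 and -0.19. The array set was not removed from these deviations, so they cannot show whether the number is a pairing. With arrays left out 1 at a time the count ran between 2 and 11. The other alternatives gave 7 to 13. The U11 probes passed in all 12 alternatives and in all 11 fits with an array left out, miR-340-p in 10 and 8, miR-24-2-p in 10 and 5, miR-346-a in 7 and 3, miR-181a-5p in 6 and 3, miR-193-a and miR-210-p in 8 and 3, and let-7f-1-a in 9 and 3.

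For the difference by treatment, 0 became 20 without the set, 1 with probes measured on all arrays, 3 with array weights, 2 with the replicate block, and 0 to 5 with an array left out. For the difference by NOS2, 2 became 7 without the set and 1 with values as deposited, and 1 to 2 with an array left out. Set 2 alone could not give either difference, for lack of arrays. The causes were not tested.

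Reversals of sign were limited to 17 named probes that did not pass in any of those fits. With set 2 only, values were -0.0641 for miR-34c-p, -0.0559 for miR-194-2-a, -0.0622 for miR-23a, -0.0898 for miR-21, -0.0688 for miR-155, -0.0683 for let-7d-5p, 0.0236 for let-7i and 0.0087 for miR-124a-1-p. Without the set, miR-222 was at 0.0166 and let-7i at 0.0711. With values as deposited, miR-222 was at 0.0423, miR-9-3-5p at 0.0926, miR-124a-1-p at 0.066 and miR-208-p at 0.0173. Median centring gave -0.0999 for miR-23a. Missing cells at the array's lowest value gave -1.02 for let-7d-5p, 0.19 for miR-124a-1-p and 0.17 for miR-133a-5p. Array weights gave -0.23 for miR-34c-p, -0.38 for miR-194-2-a, 0.0664 for miR-222 and -0.0455 for miR-128a. The replicate block gave -0.0287 for miR-34c-p and 0.28 for miR-133a-5p, and the 11 arrays alone 0.19 for miR-133a-5p. With an array left out, ranges were -0.14 to 0.17 for miR-34c-p, -0.0809 to 0.40 for miR-194-2-a, -0.0353 to 0.24 for miR-16-1, -0.0447 to 0.19 for miR-21, -0.21 to 0.42 for miR-155, -0.21 to 0.15 for miR-222, -0.12 to 0.27 for miR-195, -0.0029 to 0.18 for miR-24-1-3p, -0.0589 to 0.20 for miR-23a, -0.28 to 0.0353 for miR-214, -0.10 to 0.22 for miR-128a, -0.32 to 0.0333 for miR-9-3-5p, -0.18 to 0.11 for miR-124a-1-p and -0.12 to 0.11 for miR-208-p.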

Other observations

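A few probes were measured mostly on one side and had too few values for a test. miR-19b-2-a, from a paralog of the growth-promoting miR-17-92 cluster, was measured on all 6 double knockout C. parvum arrays (7.08 to 7.56) and on 1 of 5 NOS2 knockout arrays (7.11). The probe miR-19b-1-a, for the other gene of that miRNA, was at 0.64 ± 0.26 and did not pass (limma, adjusted p = 0.186), while it passed without NOS2 knockout array 2, at 0.90 (adjusted p = 0.0355), and was at 0.41 without array 5. miR-194-2-p was measured on 1 double knockout array (5.23) and on 4 NOS2 knockout arrays (5.90 to 8.29), and miR-615-p on 1 double knockout array (7.03) and 4 NOS2 knockout arrays (5.82 to 7.20). A missing cell on these arrays need not be a dim one, and no fold is given.

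Besides U11, the array carries other entries first named as miRNAs, and 2 were looked at after their values were seen. miR-720, whose sequence belongs to a transfer RNA, was at 11.61 to 12.72 in the double knockout and 11.87 to 14.04 in the NOS2 knockout, a change of -0.77 ± 0.35 (limma, adjusted p = 0.213), or -0.38 without NOS2 knockout array 5. miR-805 was at 11.08 to 11.65 in the double knockout and 10.66 to 11.28 in the NOS2 knockout, a change of 0.32 ± 0.14 (adjusted p = 0.213). Neither passed.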
